A study of Mus musculus with 9 samples.

Results

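Collagens are the triple-helical proteins that give the extracellular matrix its strength. The genes described here are the mouse genes named Col, a type number, a and a chain number, with 9 set aside: Col2a1, Col9a1, Col9a2, Col9a3, Col4a1, Col4a2, Col18a1, Col12a1 and Col6a6. The annotation held 35 symbols that met this rule, and 30 of them had values among the 15300 genes of the tables used. Col5a3, Col11a2, Col17a1, Col19a1 and Col28a1 were not analysed here. The list is defined by name and still holds chains known from cartilage (Col10a1, Col11a1 and Col27a1) and minor chains of basement membranes (Col4a3 to Col4a6).

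RNA was sequenced from C57BL/6 mouse gonads at E13.5 (embryonic day), dissected free of the mesonephros, in 3 groups of 3 samples. XY-WT samples were testes of XY Sox9flox/flox fetuses labelled wildtype. XX-WT samples were ovaries of XX Sox9flox/flox fetuses labelled wildtype, so every group carried floxed Sox9. In the XY-KO group the testes were of XY AMH-Cre; Sox9flox/flox fetuses, in which the promoter of the Sertoli cell hormone gene Amh drives Cre, so deletion is directed at Sertoli cells and not at the other cells of the testis. Whether a sample was 1 fetus or a pool is not given, and p-values measure the spread between these samples, which may be technical. Fold changes and p-values are those the authors obtained with limma for each pair of groups, unless called recomputed, and SEs and intervals were derived from them. No value per sample was used, and the depth of each sample is unknown. Sox9 itself stood at -2.76 (log2) in XY-KO against XY-WT in the authors' deposited table (SE 0.172, limma adjusted p 8.93e-07), and 8 of 16 Sertoli cell markers fell, Sox9 among them. Of all genes, 1.57% were lower there at a limma adjusted p under 0.05.

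A collagen molecule is made of chains wound around each other, and the chains of a type are often encoded by separate genes. Types I, III and V build the fibrils of loose connective tissue, fibril-associated types sit on their surface, type VI forms beaded filaments near cells, and type IV forms the sheet of basement membranes. In the fetal testis, cords of Sertoli and germ cells are wrapped in a basement membrane and surrounded by an interstitium of fibroblast-like progenitors, Leydig cells and vessels. SOX9 directs Sertoli cells to differentiate, and in cartilage it switches on several collagen genes directly.

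Promoter sequence was available from RefSeq on GRCm38.p6 for 24 of the 30 genes, in 25 windows of 300 bases from 250 before to 50 after the start. The letters ACAAAG, a core bound by SOX proteins, were found on either strand in 3 of the 25 windows, those of Col3a1, Col10a1 and Col20a1, against 18.7% of all 32851 promoters of the table. The letters ACAATG were found in 0 of the 25, against 12.6% of all promoters. A match describes letters only, and no match says only that these letters are not in the window. No window was available for Col14a1, which fell in XY-KO, or for Col1a1, Col4a3, Col5a2, Col22a1 and Col26a1, so these were not searched. The bases before the start are shown for Col27a1 (chr4:63215162-63215411, plus strand) and Col25a1 (chr3:130180595-130180844, plus strand), which fell in XY-KO, and for Col3a1 (chr1:45311288-45311537, plus strand), the most abundant of the genes in XY-WT. The 71 bases between the starts of Col4a4 and Col4a3 (chr1:82586850-82586920, plus strand), a pair that was lower in XX-WT, are shown last. Capitals mark ACAAAG, and a sequence without capitals held neither core.
Col27a1: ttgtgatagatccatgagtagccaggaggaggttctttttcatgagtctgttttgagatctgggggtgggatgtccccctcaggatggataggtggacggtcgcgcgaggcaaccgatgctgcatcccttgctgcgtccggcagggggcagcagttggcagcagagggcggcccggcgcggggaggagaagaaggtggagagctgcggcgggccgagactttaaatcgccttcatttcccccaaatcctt
Col25a1: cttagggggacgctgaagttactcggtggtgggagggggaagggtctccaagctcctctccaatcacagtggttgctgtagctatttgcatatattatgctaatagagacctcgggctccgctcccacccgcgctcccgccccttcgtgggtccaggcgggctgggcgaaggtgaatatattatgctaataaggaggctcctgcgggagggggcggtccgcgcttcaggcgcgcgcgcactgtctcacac
Col3a1: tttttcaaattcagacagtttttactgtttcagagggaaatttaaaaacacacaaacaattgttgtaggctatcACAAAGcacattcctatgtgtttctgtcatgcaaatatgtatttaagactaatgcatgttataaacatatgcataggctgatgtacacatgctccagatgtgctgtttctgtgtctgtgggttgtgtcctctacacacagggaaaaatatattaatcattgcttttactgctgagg
Col4a4 to Col4a3: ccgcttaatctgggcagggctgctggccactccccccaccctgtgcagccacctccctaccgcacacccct
In Col3a1 the ACAAAG began 176 bases before the start, and the stretch held no CG pair and was 35.2% G or C. Those of Col27a1 and Col25a1 held 15 and 18 CG pairs and were 59.6% and 60.4% G or C. The RefSeq start of Col25a1 lay 49344 bases, and that of Col27a1 1408 bases, from the outermost start of the gene in the GENCODE annotation.

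Most collagens of the list were higher in the control testis than in the ovary, and 3 of the 30 were called when Sox9 was deleted. Against XY-WT, 16 of the 30 genes were lower and 2 higher in XX-WT, while 12.4% and 10.9% of all genes were called lower and higher (limma adjusted p under 0.05). With Sox9 deleted (XY-KO against XY-WT), 3 genes fell and 0 rose, with 1.57% and 0.699% of all genes called lower and higher. The genes that fell were Col14a1, Col27a1 and Col25a1. At an unadjusted p under 0.05, limma had 4 lower and 2 higher in that comparison. In XY-KO against XX-WT, 15 genes were higher and 0 lower, against 9.16% and 9.11% of all genes, and at an unadjusted p under 0.05 these counts were 18 and 1. The share of all genes at an unadjusted p under 0.05 was not computed, so counts at that threshold, here and below, have no background. Of the 9 genes set aside, 5 fell and 1 rose in XY-KO against XY-WT. In XY-KO against XX-WT 6 of them were higher and 1 lower. The counts of the list, those of 3 and 0 included, thus hold for the list only. Collagens that fell in XY-KO were among those set aside, and the members were chosen with earlier results known.

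The median log2 fold change over the 30 genes was -0.82 in XX-WT against XY-WT, -0.11 in XY-KO against XY-WT and 0.65 in XY-KO against XX-WT. Over all genes the medians were 0.00, -0.01 and -0.00. With a trend of the fold changes with GC content and length removed, the median of the knockout comparison was 0.07, so its sign depended on that step, and the other medians were -0.74 and 0.64. That step also changed the sign in XY-KO against XY-WT of 7 genes that were not called there (Col1a1, Col1a2, Col5a1, Col6a1, Col8a2, Col16a1 and Col26a1), so no direction is read for them. In all, 14 genes were both lower in XX-WT than XY-WT and higher in XY-KO than XX-WT; these comparisons share the XX-WT samples, so the count is only a description. No comparison called 11 of the genes. For 21 of the 27 genes not called in XY-KO against XY-WT the 95% interval of the change stayed within 2-fold either way, and for the other 6 it reached beyond. In whole gonads, fewer cells of a type and less RNA per cell cannot be told apart.

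**Figure D1:**
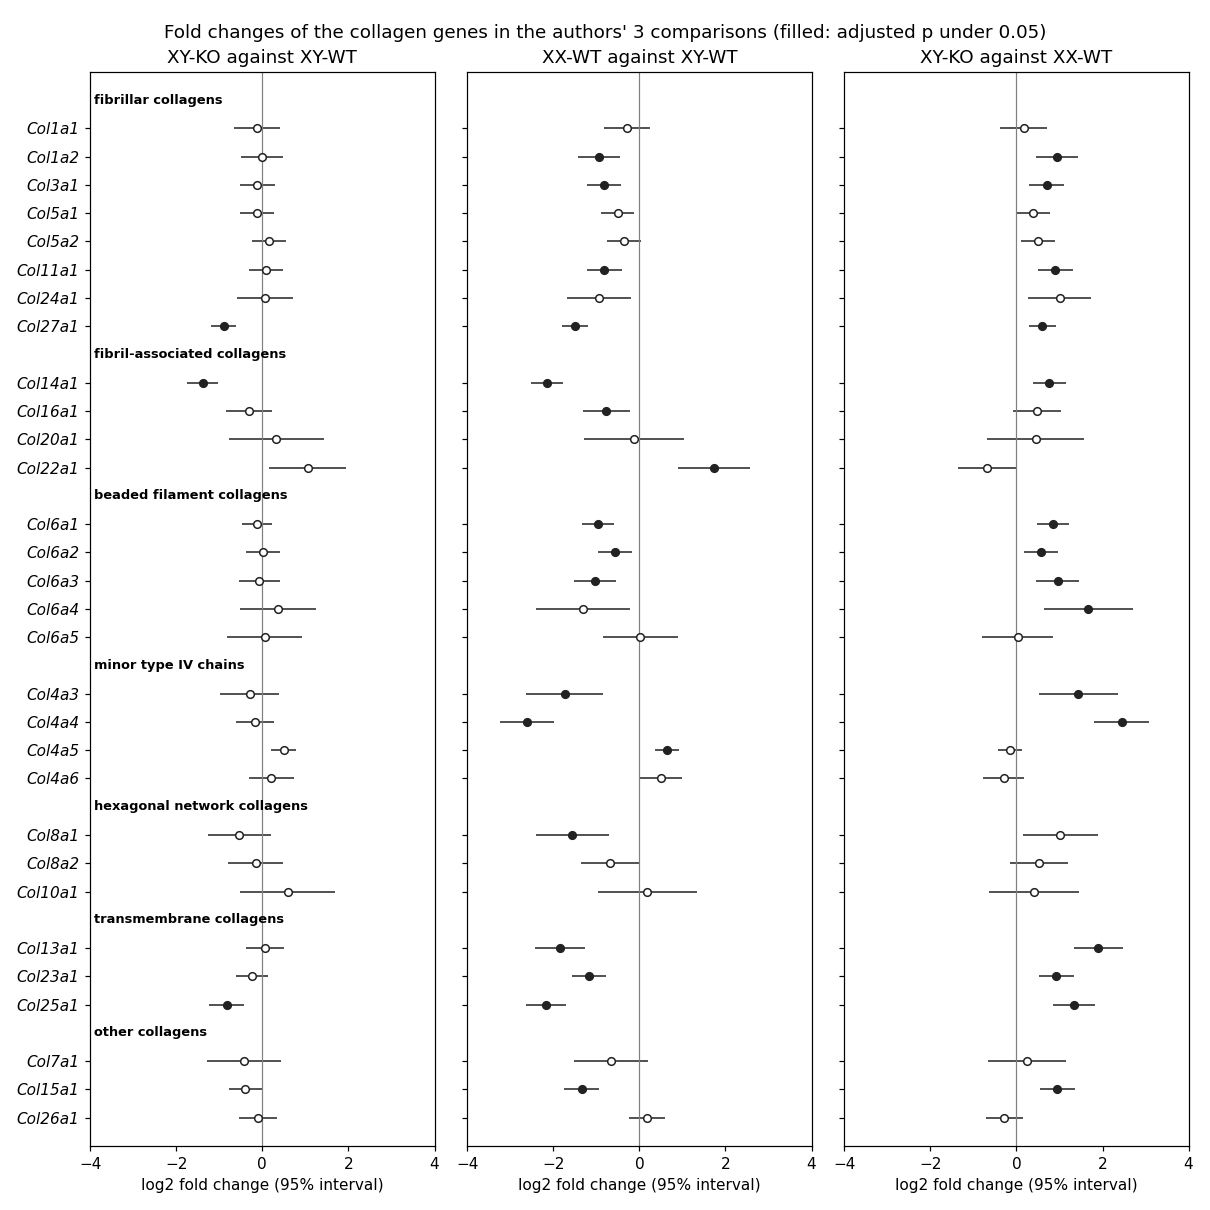
Log2 fold change (horizontal axis) of each of the 30 collagen genes in the authors' 3 comparisons, grouped by structural class, with bars for the 95% interval and filled points for an adjusted p under 0.05. In XY-KO against XY-WT the filled points are Col14a1, Col27a1 and Col25a1, all left of 0, and 16 filled points lie left of 0 in XX-WT against XY-WT.

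Levels between genes were compared per kilobase of exon, in CPM per kb (CPM, reads scaled to a common library total), from group levels derived from the authors' mean and fold changes. Exon length was that of all annotated exons of a gene merged, 12426 bases for Col1a2 and 6563 for Col1a1. Their longest transcripts had 5348 and 5930 bases, so the ranks and shares below depend on the length used. In XY-WT the highest was Col3a1 at 64.7 CPM per kb, followed by Col1a1 at 43.9, Col1a2 at 34.8, Col14a1 at 13.7 and Col5a1 at 11.7. In log2 CPM per kb the first 3 stood at 6.02 (SE 0.133), 5.45 (SE 0.176) and 5.12 (SE 0.159), so Col3a1 lay above Col1a1 by more than the sum of their SEs, while Col1a1 and Col1a2 differed by about that sum. Before scaling by exon length Col1a2 stood above Col1a1, at 8.75 against 8.17 log2 CPM in XY-WT, so no order of this pair is read. Next came Col6a1 at 11.6, level with Col5a1, and Col6a2, Col4a5, Col5a2 and Col6a3 between 7.76 and 5.51 CPM per kb. Col3a1, Col1a1 and Col1a2 together held 62.6% of the summed CPM per kb of the 30 genes in XY-WT, 64.5% in XY-KO and 64.3% in XX-WT. The sum itself was 229 CPM per kb in XY-WT, 209 in XY-KO and 141 in XX-WT. Lowest in XY-WT were Col22a1 at -3.95 and Col6a4 at -3.26 in log2 CPM per kb.

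**Figure D2:**
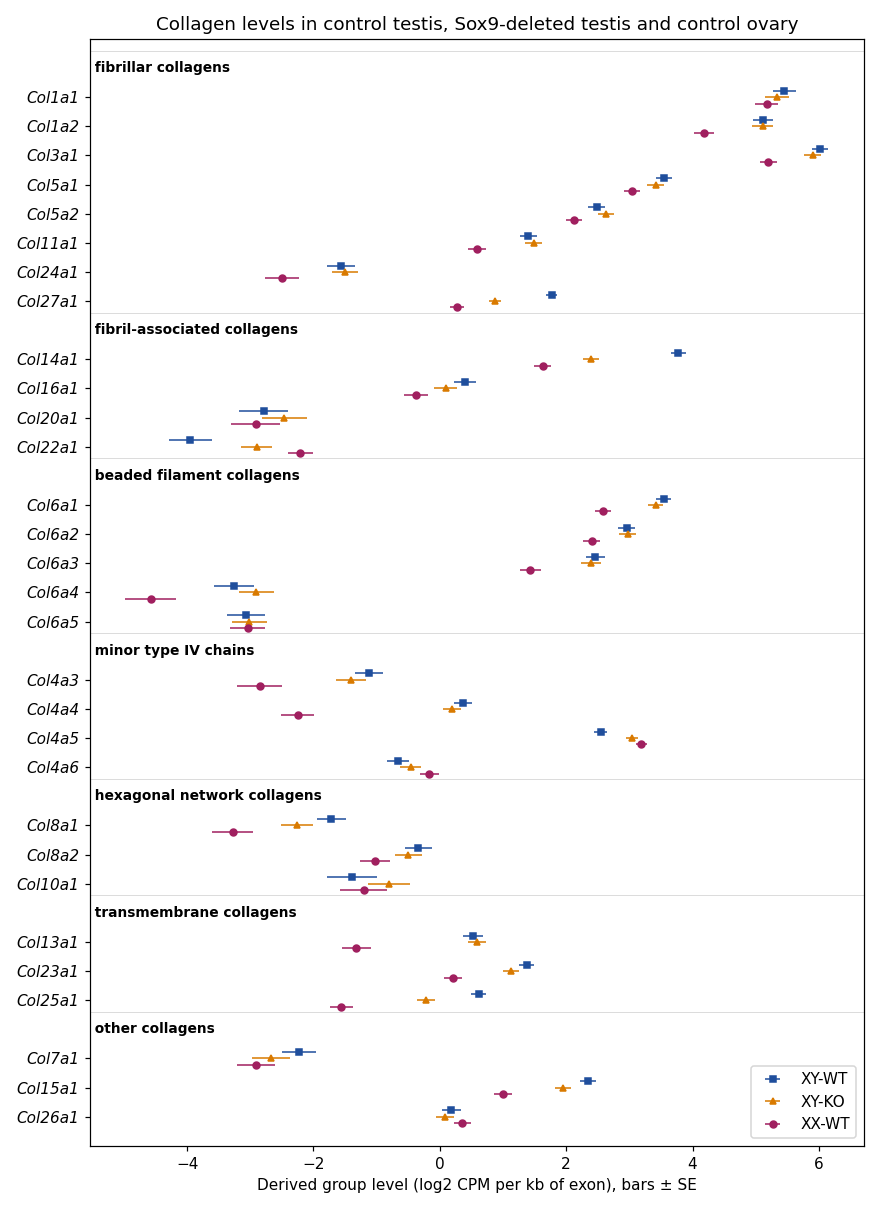
Derived level of each gene in XY-WT (squares), XY-KO (triangles) and XX-WT (circles) in log2 CPM per kb of exon, with bars for the SE, grouped by structural class. Col3a1, Col1a1 and Col1a2 lie farthest right in each group, and for Col14a1, Col27a1 and Col25a1 the triangle stands between the square and the circle.

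The fibrillar collagens had 4 of 8 genes lower and 0 higher in XX-WT than XY-WT, against 12.4% and 10.9% of all genes. In XY-KO 1 of 8 was lower than in XY-WT, against 1.57% of all genes. Col27a1, a fibrillar collagen found in cartilage, was the one that fell with Sox9. Its level was 5.47 log2 CPM in XY-WT (SE 0.0909), 4.57 in XY-KO (SE 0.101) and 3.97 in XX-WT (SE 0.107), and the 3 levels did not overlap within their SEs. The authors' deposited table had Col27a1 at -0.90 in XY-KO against XY-WT (SE 0.136, limma adjusted p 0.00169), a level 1.86-fold lower (95% interval 1.52 to 2.27). For the ovary against XY-WT the authors' deposited table gave -1.50 (SE 0.14, limma adjusted p 1.39e-06), and XY-KO remained above XX-WT by 0.60 (limma adjusted p 0.00882).

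Col3a1, the type III chain of soft tissues (ENSMUSG00000026043, chromosome 1, 45311538 to 45349706, GRCm38), was at 9.31 log2 CPM in XY-WT, 9.20 in XY-KO and 8.49 in XX-WT. The testis groups lay within the sum of their SEs and the ovary stood apart. In the ovary against XY-WT, the authors' deposited table gave Col3a1 -0.82 (SE 0.189, limma adjusted p 0.00493), and for XY-KO against XY-WT -0.11 (95% interval -0.52 to 0.29, limma adjusted p 0.794). XY-KO exceeded XX-WT by 0.70 for Col3a1 (limma adjusted p 0.0175) and by 0.94 for Col1a2 (limma adjusted p 0.00918), as listed by the authors' deposited table. Col1a2, a chain of type I collagen, was at 8.75 log2 CPM in XY-WT, 8.75 in XY-KO and 7.81 in XX-WT. Its ovary value in the authors' deposited table was -0.94 (SE 0.226, limma adjusted p 0.00644), 1.92-fold lower (95% interval 1.38 to 2.68), while XY-KO stood at -0.01 (95% interval -0.49 to 0.48). Its partner Col1a1 was at 8.17 log2 CPM in XY-WT, 8.05 in XY-KO and 7.89 in XX-WT. Col1a1 did not pass for the ovary, with -0.28 in the authors' deposited table (95% interval -0.82 to 0.25, limma adjusted p 0.453). Whether the chains of type I differ in their change was not tested.

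Col11a1, which nucleates fibrils in cartilage and other tissues, was at 5.07 log2 CPM in XY-WT, 5.15 in XY-KO and 4.25 in XX-WT. It had an ovary value of -0.82 in the authors' deposited table (SE 0.192, limma adjusted p 0.00548) and was higher in XY-KO than XX-WT by 0.90 (limma adjusted p 0.00331). The type V chains Col5a1 and Col5a2, which control fibril width, and Col24a1 did not pass in any comparison. Their ovary values in the authors' deposited table were -0.51 (limma adjusted p 0.059), -0.35 (limma adjusted p 0.184) and -0.93 (limma adjusted p 0.0672). Over the 7 fibrillar genes not called in XY-KO against XY-WT, the log2 changes ran from -0.13 to 0.15, with limma adjusted p from 0.709 to 0.992.

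Among the fibril-associated collagens, Col14a1 had the largest fall in XY-KO of the 30 genes. Col14a1 encodes a protein of the fibril surface that regulates fibril growth (ENSMUSG00000022371, chromosome 15, 55307750 to 55520803). Its level was 6.59 log2 CPM in XY-WT (SE 0.113), 5.20 in XY-KO (SE 0.125) and 4.44 in XX-WT (SE 0.132), without overlap within the SEs. The authors' deposited table put Col14a1 at -1.39 in XY-KO against XY-WT (SE 0.168, limma adjusted p 0.000278), which is 2.62-fold lower (95% interval 2.04 to 3.35). In the ovary Col14a1 was at -2.15 against XY-WT, 4.44-fold lower, per the authors' deposited table (SE 0.174, limma adjusted p 2.82e-07), and XY-KO lay 0.76 above XX-WT (limma adjusted p 0.0073). It was the only gene of the 30 called with a fall of at least 2-fold in XY-KO.

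Col22a1, a collagen of the junction between muscle and tendon, went the other way in the ovary. Its derived level was -0.75 log2 CPM in XY-WT (SE 0.34), 0.30 in XY-KO (SE 0.247) and 0.99 in XX-WT (SE 0.195). The authors' deposited table gave Col22a1 1.74 in XX-WT against XY-WT (SE 0.392, limma adjusted p 0.00415), 3.34-fold higher (95% interval 1.87 to 5.94). Its value in the knockout testis was 1.05, which did not pass (95% interval 0.16 to 1.94, limma adjusted p 0.194). Of 16 skeletal muscle markers 6 were measured. Among these, 1 rose in XY-KO and 2 were higher in XX-WT, against 0.699% and 10.9% of all genes. The summed level of the 6 was 30.9 CPM in XY-WT, 62.7 in XY-KO and 66.1 in XX-WT. The authors' deposited table had the perinatal myosin Myh8 at 1.66 in XY-KO (limma adjusted p 0.00148) and 2.02 in XX-WT (limma adjusted p 1.69e-05). The muscle regulators Myod1, Myog, Myf5, Myf6 and Pax7 were not analysed here, and the part of muscle in the Col22a1 values was not tested.

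Col16a1, a minor fibril-associated collagen, was at 3.16 log2 CPM in XY-WT, 2.85 in XY-KO and 2.38 in XX-WT. It passed in the ovary at -0.77 in the authors' deposited table (SE 0.256, limma adjusted p 0.0395), a call that ended once the trend on GC and length was taken out (recomputed adjusted p 0.289). Col20a1 passed nowhere, and its 95% intervals reached beyond 2-fold on at least 1 side in each comparison.

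Type VI collagen, the beaded filament assembled from Col6a1, Col6a2 and Col6a3, was lower in the ovary in all 3 of these chains, and none of the 3 was called in XY-KO against XY-WT. Col6a1 was at 5.67 log2 CPM in XY-WT, 5.55 in XY-KO and 4.71 in XX-WT. Col6a2 was at 6.01 log2 CPM in XY-WT, 6.03 in XY-KO and 5.46 in XX-WT. Col6a3 was at 6.04 log2 CPM in XY-WT, 5.97 in XY-KO and 5.01 in XX-WT. For each chain the testis groups lay within the sum of their SEs and the ovary below them. The ovary changes in the authors' deposited table were -0.97 for Col6a1 (SE 0.172, limma adjusted p 0.000682), -0.56 for Col6a2 (SE 0.185, limma adjusted p 0.0409) and -1.03 for Col6a3 (SE 0.229, limma adjusted p 0.00373). The call of Col6a2 ended without the GC and length trend (recomputed adjusted p 0.147). Between XY-KO and XY-WT the same chains stood at -0.12, 0.02 and -0.07 in the authors' deposited table, and in XY-KO against XX-WT at 0.84 (limma adjusted p 0.00271), 0.57 (limma adjusted p 0.0442) and 0.96 (limma adjusted p 0.00808).

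The other type VI genes, Col6a4 and Col6a5, which encode alternative chains, were scarce. Col6a4 had a derived level of -0.17 log2 CPM in XY-WT, 0.19 in XY-KO and -1.48 in XX-WT. It was higher in XY-KO than XX-WT by 1.67 in the authors' deposited table (SE 0.486, limma adjusted p 0.0249), while its ovary value of -1.31 against XY-WT did not pass (limma adjusted p 0.0765). Col6a5 was at 0.17 log2 CPM in XY-WT, 0.22 in XY-KO and 0.19 in XX-WT and passed nowhere.

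Of the 4 minor type IV chains, 2 were lower and 1 higher in the ovary, against 12.4% and 10.9% of all genes. Col4a3 and Col4a4, which with Col4a5 form the mature basement membrane network of the kidney glomerulus, lie side by side on chromosome 1 with starts facing apart. Both were lower in the ovary, and neither was called in XY-KO against XY-WT. Col4a4 (82448423 to 82586849) was at 3.77 log2 CPM in XY-WT (SE 0.145), 3.60 in XY-KO (SE 0.147) and 1.16 in XX-WT (SE 0.258). According to the authors' deposited table Col4a4 was at -2.61 in the ovary (SE 0.296, limma adjusted p 9.44e-06), the lowest value of the 30 genes in that comparison and 6.12-fold below XY-WT (95% interval 3.95 to 9.48). Its change in XY-KO was -0.17 (95% interval -0.61 to 0.27, limma adjusted p 0.704), and XY-KO exceeded XX-WT by 2.44 (limma adjusted p 2.59e-05), both as the authors' deposited table has it. Col4a3 (82586921 to 82722059) was at 2.20 log2 CPM in XY-WT, 1.91 in XY-KO and 0.47 in XX-WT. The authors' deposited table listed Col4a3 at -1.73 for the ovary (SE 0.421, limma adjusted p 0.00712), -0.29 for XY-KO (limma adjusted p 0.669) and 1.44 for XY-KO against XX-WT (limma adjusted p 0.0275). An overlapping transcript on the opposite strand, C430014B12Rik, shared 5.65% of the exon bases of Col4a3, and the sources used here do not say whether counting used the strand.

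Col4a5 and Col4a6 lie on the X chromosome, also with starts facing apart, 1308 bases between them. Col4a5 was at 5.29 log2 CPM in XY-WT (SE 0.0961), 5.79 in XY-KO (SE 0.0938) and 5.94 in XX-WT (SE 0.091), so XY-KO stood nearer to the ovary. The authors' deposited table gave 0.64 for Col4a5 in XX-WT against XY-WT (SE 0.132, limma adjusted p 0.00212). Between XY-KO and XY-WT the value was 0.49 (95% interval 0.21 to 0.78, limma adjusted p 0.0698), which passed under 1 of the alternatives tried, adjustment over the 3 tables together. XY-KO and XX-WT differed by -0.15 for Col4a5 in the authors' deposited table (95% interval -0.43 to 0.13, limma adjusted p 0.494). Col4a6 was at 2.33 log2 CPM in XY-WT, 2.53 in XY-KO and 2.83 in XX-WT and passed nowhere, with 0.49 in the ovary in the authors' deposited table (limma adjusted p 0.145).

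**Figure D3:**
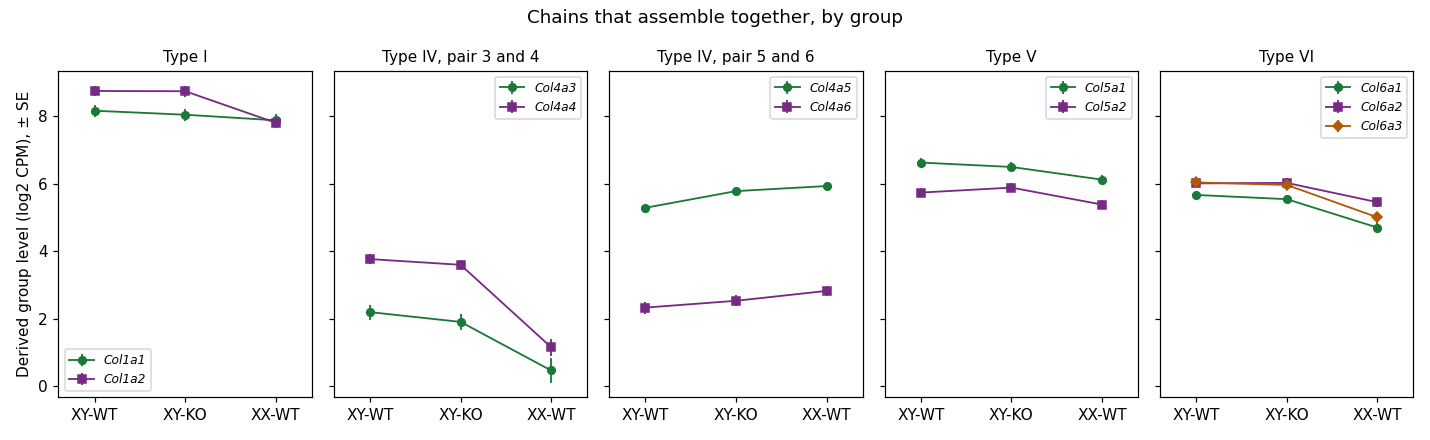
Derived level in log2 CPM (vertical axis), with SE bars, of chains that assemble together or lie in pairs, across XY-WT, XY-KO and XX-WT. Col4a4 goes from 3.77 in XY-WT to 1.16 in XX-WT with Col4a3 below it, Col4a5 is higher in XX-WT, and the type VI chains are lowest in XX-WT.

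Transmembrane collagens, whose chains span the cell membrane, were lower in the ovary in 3 of 3 measured genes, against 12.4% of all genes. Col25a1, known from neurons and motor innervation (ENSMUSG00000058897, chromosome 3, 130131501 to 130599877), was at 4.31 log2 CPM in XY-WT (SE 0.124), 3.48 in XY-KO (SE 0.142) and 2.13 in XX-WT (SE 0.18), with no overlap within the SEs. The fall of Col25a1 in XY-KO against XY-WT was -0.83 in the authors' deposited table (SE 0.189, limma adjusted p 0.03), which is 1.78-fold lower (95% interval 1.35 to 2.35). The call ended at an adjusted p under 0.01. For the ovary that gene stood at -2.18 in the authors' deposited table (SE 0.219, limma adjusted p 2.94e-06), 4.52-fold lower, and XY-KO lay above XX-WT by 1.34 (limma adjusted p 0.000567).

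Col13a1, which clusters at the neuromuscular junction, was at 2.73 log2 CPM in XY-WT, 2.79 in XY-KO and 0.88 in XX-WT. The ovary value of Col13a1 in the authors' deposited table was -1.84 (SE 0.274, limma adjusted p 0.00013), 3.59-fold lower (95% interval 2.4 to 5.38), against 0.06 in XY-KO (95% interval -0.38 to 0.51). Col23a1, a membrane collagen shed from the cell surface, was at 3.89 log2 CPM in XY-WT, 3.65 in XY-KO and 2.72 in XX-WT. Its values in the authors' deposited table were -1.17 in the ovary (SE 0.186, limma adjusted p 0.000246) and -0.24 in XY-KO (limma adjusted p 0.469). XY-KO lay above XX-WT by 1.91 for Col13a1 (limma adjusted p 0.00011) and by 0.93 for Col23a1 (limma adjusted p 0.00238), per the authors' deposited table.

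Of the remaining genes, Col15a1, a collagen that links basement membranes to the stroma, was at 5.01 log2 CPM in XY-WT, 4.62 in XY-KO and 3.67 in XX-WT. Its ovary value was -1.34 in the authors' deposited table (SE 0.187, limma adjusted p 7.28e-05), and its XY-KO value of -0.39 did not pass (95% interval -0.77 to -0.02, limma adjusted p 0.241). Against XX-WT, Col15a1 was higher in XY-KO by 0.95 in the authors' deposited table (limma adjusted p 0.00222). Col8a1, a network-forming collagen of vessel walls and the eye, was at 1.25 log2 CPM in XY-WT, 0.71 in XY-KO and -0.31 in XX-WT. The ovary was lower for Col8a1 at -1.56 in the authors' deposited table (SE 0.397, limma adjusted p 0.00949), with -0.54 in XY-KO (limma adjusted p 0.416). Col8a2, its partner, Col10a1 of growth plate cartilage, Col7a1 of the anchoring fibrils of skin, and Col26a1, known from testis and ovary, passed in none of the comparisons. In the ovary their values in the authors' deposited table were -0.68, 0.18, -0.67 and 0.17, and the 95% interval of Col26a1, from -0.25 to 0.60, was the narrowest of these.

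The cartilage collagens set aside by the rule are given for comparison, with no test. All 4 (Col2a1, Col9a1, Col9a2 and Col9a3) fell in XY-KO, by log2 values from -2.17 to -1.35 in the authors' deposited table. Of the 30 genes 3 fell, and of all genes 1.57%. The main basement membrane chains Col4a1 and Col4a2 were at -0.26 and -0.31 in XY-KO and did not pass, and at -1.92 and -1.62 in the ovary in the authors' deposited table, where both passed. Col18a1, also of basement membranes, fell in XY-KO at -1.08 in the authors' deposited table (limma adjusted p 0.00207). The type VI chain gene Col6a6 rose, at 1.45 (limma adjusted p 0.000787), and the fibril-associated Col12a1 stood at 0.07 in XY-KO and was higher in the ovary at 3.26 (limma adjusted p 5.4e-08), per the authors' deposited table.

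Genes of procollagen modification, folding and secretion, enzymes and their partners, were mostly lower in the ovary. Of 22, 13 were lower and 2 higher, against 12.4% and 10.9% of all genes, and their median was -0.59 on the log2 scale. Per gene, the authors' deposited table gave -1.14 for Plod2, a lysyl hydroxylase (limma adjusted p 9.96e-06), -0.99 for the collagen-binding Sparc (limma adjusted p 2.72e-05) and -1.48 for Creb3l1, a transcription factor of collagen-secreting cells (limma adjusted p 4.43e-05). Without the GC and length trend, 9 were lower. After deletion of Sox9, 2 of the 22 fell and 0 rose, against 1.57% and 0.699% of all genes. At an unadjusted p under 0.05 in limma, 9 were lower and 1 higher, with no share of all genes to set beside them. The median was -0.34, and -0.14 without the trend. Those that fell in the authors' deposited table were Colgalt1, which adds galactose to collagen, at -0.81 (SE 0.152, limma adjusted p 0.00949), and Plod2 at -0.58 (SE 0.129, limma adjusted p 0.0272). The call of Colgalt1 ended without the trend (recomputed adjusted p 0.0515). In XY-KO against XX-WT 6 of the 22 were higher and 0 lower, against 9.16% and 9.11% of all genes.

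Genes of procollagen processing and crosslinking outside the cell, enzymes and the enhancer Pcolce, had 6 of 10 genes lower and 0 higher in the ovary. Of all genes, 12.4% and 10.9% were called there. The median of the 10 was -1.03, and 5 were lower without the GC and length trend. In XY-KO against XX-WT 5 were higher and 0 lower, against 9.16% and 9.11% of all genes. Between XY-KO and XY-WT limma called 0 of 10, with 0 also at an unadjusted p under 0.05. Only 1.57% of all genes were lower and 0.699% higher there, so the count of 0 among 10 genes is not read as a result. In the ovary the authors' deposited table had the lysyl oxidase relative Loxl2 at -1.53 (limma adjusted p 2.96e-06), the procollagen N-propeptidase Adamts2 at -1.14 (limma adjusted p 1.74e-05) and Pcolce, which enhances C-propeptide cleavage, at -1.33 (limma adjusted p 0.000108). Their XY-KO values in the authors' deposited table were -0.26, -0.06 and -0.26.

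Fibril-binding proteoglycans and partners went both ways in the ovary, with 3 of 13 higher and 3 lower. Of all genes, 10.9% were called higher and 12.4% lower there. Thbs2, a matricellular protein needed for normal fibrils in the mouse, was at 2.83 and the proteoglycan Bgn at -1.30 in the authors' deposited table. In XY-KO against XY-WT limma called 0 of 13, with 1 higher and 0 lower at an unadjusted p under 0.05. Of all genes, 1.57% were called lower and 0.699% higher in that comparison. A count of 0 in lists this short is therefore not read as a result. Collagen receptors had 3 of 10 lower and 0 higher in the ovary: Cspg4, also a pericyte marker, at -1.62, the discoidin receptor Ddr1 at -0.91 and Adgrg1, a receptor for type III collagen, at -0.75 in the authors' deposited table. In XY-KO limma called 0 of 10 receptors, with 4 lower and 1 higher at an unadjusted p under 0.05. Degradation genes had 1 of 8 higher in the ovary, the protease Fap at 2.32, and 2 lower, the gelatinase Mmp2 at -0.86 and the inhibitor Timp1 at -1.14 in the authors' deposited table. Beside the shares of all genes, no shift of the degradation list is read from so few genes. In XY-KO limma called 0 of 8, with 1 higher and 0 lower at an unadjusted p under 0.05.

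**Figure D4:**
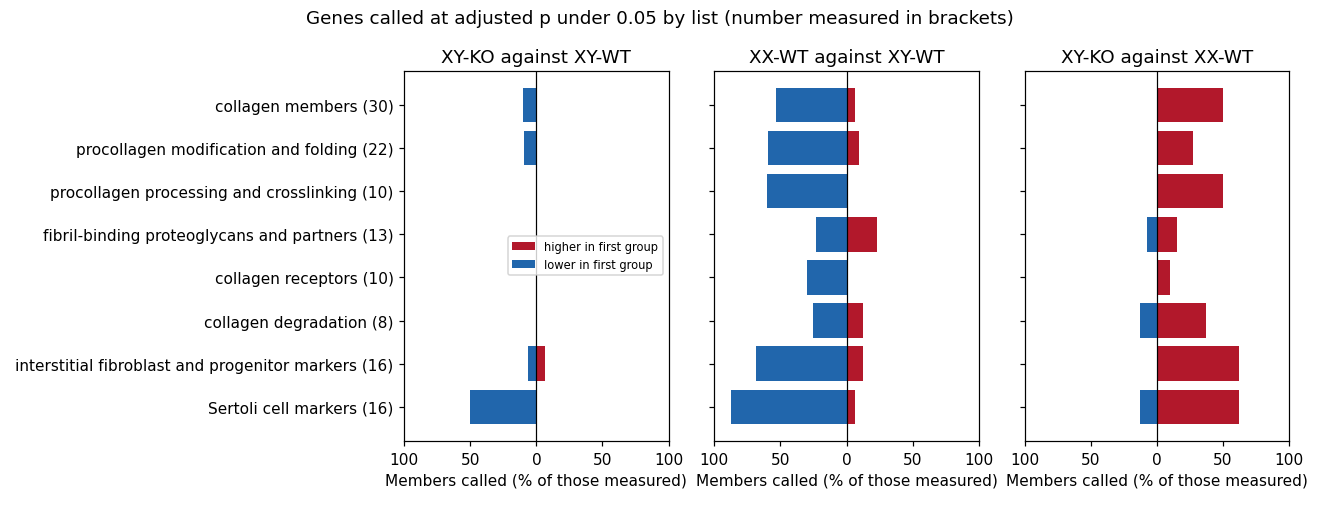
Share of the measured genes of each list called lower (bars left of 0) or higher (bars right of 0) in the first named group at an adjusted p under 0.05, in percent, for the 3 comparisons. Of the 8 lists drawn, the longest bar in XY-KO against XY-WT is that of the Sertoli cell markers, with 8 of 16 lower, 3 of 30 collagens are lower, and the crosslinking, proteoglycan, receptor and degradation lists have no bar.

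Markers of interstitial cells differed between the sexes alongside the collagens. Of 16 interstitial fibroblast and progenitor markers, 11 were lower and 2 higher in XX-WT than XY-WT, and 10 were higher and 0 lower in XY-KO than XX-WT. For all genes these shares were 12.4% and 10.9%, then 9.16% and 9.11%, and they apply to the other marker lists too. In XY-KO against XY-WT 1.57% of all genes were lower and 0.699% higher. The authors' deposited table had the hedgehog receptor gene Ptch1 lower in XY-KO than XY-WT, at -0.61 (limma adjusted p 0.0147), and the transcription factor gene Maf higher, at 0.50 (limma adjusted p 0.0344). The call of Maf ended without the GC and length trend (recomputed adjusted p 0.0543). The summed level of the 16 was 1389 CPM in XY-WT, 1397 in XY-KO and 742 in XX-WT, beside 2033, 1866 and 1216 CPM for the 30 collagens. Endothelial and pericyte markers had 5 of 12 lower and 1 higher in the ovary, with summed levels between 265 CPM in XY-WT and 212 in XX-WT, and in XY-KO limma called 0, with 1 lower and 1 higher at an unadjusted p under 0.05. Tendon and cartilage cell markers, of which 6 of 12 were measured, had 2 higher and 3 lower in the ovary, with summed levels of 121, 136 and 94.4 CPM. Mesonephric markers had 4 of 5 measured higher and 1 lower in the ovary, with summed levels of 72.1, 93.1 and 209 CPM. Emx2 made up most of these sums, with a mean over all samples of 6.59 log2 CPM. The means were 2.6 for Lhx1, 2.055 for Pax8, 0.16 for Ret and -1.58 for Pax2. No amount of mesonephros is read from the sums. The part of these cell types in the collagen values was not tested.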

How the data were processed

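Total RNA of 9 gonad samples was amplified by the SPIA method and read as pairs of 150 nt, per the labels' protocols. Per the submitters' processing notes, limma 3.24.0 was used with HTSeq 0.6.1p1, TopHat2 2.0.8 and Trimmomatic 0.30 on GRCm38; the gene filter, the normalization and any weighting of samples are not given in the sources used here. Each of the authors' deposited tables holds, per the file headers, the log2 fold change and mean log2 expression (taken as log2 CPM), the limma p-value with its Benjamini-Hochberg adjusted p-value, and the limma t and log-odds scores, for 1 pair of groups over 15300 genes. Without values per sample, the depth is unknown and no sample could be left out.

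The members and gene lists were chosen with earlier results of these data known. Symbols were matched for 15192 gene IDs through GENCODE M21. Recomputed adjusted p-values differed from the deposited ones by at most 0.000769 relative, the 3 fold changes added up within 0.005, and the t scores matched the p-values at 15.27 degrees of freedom in every table, as 1 fit of all samples would give. From these, SE is the fold change over t, and 95% intervals follow. Group levels weight the groups equally, with SEs solved from the 3 comparisons. Genes were called at an adjusted p under 0.05. By rule, every member called in at least 1 comparison was to be given in full and the others by range; for brevity, called members have every called fold change with its adjusted p, but SEs and intervals for part of them only, and some uncalled members have values of their own; of other lists, the called genes with the smallest adjusted p were named, and Sox9, while genes named beyond these were chosen after their values were seen. Alternatives were stricter calls, other adjustments and genes at or above the median expression of 3.19 log2 CPM. Another removed a robust polynomial trend (degree 3) on GC and length. Its test on simulated data planted a trend on GC only, so the length part was not tested. Calculations used statsmodels 0.14.6, scipy 1.17.1, pandas 2.3.3 and numpy 2.4.6 in Python 3.11.15, and figures matplotlib 3.10.9.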

Additional observations from a re-analysis of the deposited data

How the results depend on the processing

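Depth is unknown, so what it limits could not be computed. For the 30 genes the 95% interval of the knockout change reached 0.286 to 1.11 either side on the log2 scale. Removing the GC and length trend was the one setting that recomputed fold changes: 34 of 36 called results still passed with the same sign, Col16a1 and Col6a2 in XX-WT against XY-WT did not pass, and among genes not called the sign changed for 7 in XY-KO against XY-WT, 1 (Col20a1) in XX-WT against XY-WT and 0 in XY-KO against XX-WT. The other settings changed only thresholds, adjustment or the genes tested. With a 2-fold limit, 1 gene was lower in XY-KO than XY-WT (Col14a1), 1 higher and 10 lower in XX-WT than XY-WT, and 5 higher in XY-KO than XX-WT. With Bonferroni adjustment these counts were 1, 0, 5 and 1. Over genes at or above median expression, 1 was higher in XX-WT, since Col22a1 lies below that limit, and adjusted over the 3 tables together 1 gene, Col4a5, was higher in XY-KO than XY-WT. Other counts stayed within 1.5 times those reported. Of the genes called lower in XX-WT, Col4a3, Col4a4, Col8a1, Col13a1 and Col16a1 also lie below median expression. Over genes at or above it, 11 were lower in XX-WT than XY-WT and 11 higher in XY-KO than XX-WT. With a weight of 0.5 for a group, derived XY-WT levels shifted by at most 0.337, and 86 of 90 by less than the spread between samples that their SE implies. No paired analysis was possible because the tables hold no values per sample, and for the same reason no replicate could be left out.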
